A study of Rattus norvegicus with 3 samples.

Results

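Genes for the subunits of the 5 oxidative phosphorylation complexes, together with the gene for cytochrome c, were followed in rat soleus muscle after denervation and after tail suspension. The members were a list of 48 genes with a known place in the complexes. No value enters the rule, but the list was drawn up with earlier results of these data known and does not hold every subunit; the subunits left out are described further on. A gene was measured by a probe set annotated with its symbol alone, and the brightest such probe set by the mean of the 3 arrays was used, which gave 45 measured members of 14506 named genes in all. Ndufs6, Cyc1 and Cox7a1 had no such probe set and were not analysed here. Rats were 7 weeks old, from a strain labelled Brown, and every group, including the control, was irradiated continuously for 2 weeks up to 50 mSv in total. Group Ct had irradiation alone, group DN had denervation as well, and group TS had tail suspension as well, which takes the load off the hind limbs. RNA of the 6 rats of each group was pooled and hybridised to 1 Affymetrix Rat Gene 1.0 ST array, so there are 3 arrays and no replicates. The labels do not say how the muscle was denervated or when within the irradiation period either treatment began, and an unirradiated group was not analysed here.

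Values are log2 expression levels from RMA, in which a difference of 1 is a 2-fold change if the unstated base of the logarithm is 2. With 1 array per group no spread between samples and no test exist, and every difference describes the pools. As a measure of error within an array pair, probe sets of the same gene, over 401 genes with several, disagreed by a median of 0.03 between DN and Ct, 0.11 between TS and Ct and 0.09 between DN and TS, with 95th percentiles of 0.33, 0.73 and 0.76. The last 2 exceed 1.5-fold, so single differences in TS minus Ct and DN minus TS near that limit are within what probe sets of a gene can disagree by. Equal readings on 2 arrays were commonest between DN and Ct (4355 of the 10154 genes compared below, against 2506 for TS and Ct). The smaller DN and Ct values therefore do not by themselves mean higher precision for the members. Of the 4 members with further probe sets, Atp5mc3 gave -1.24 and -1.62 in DN, and -0.61 and -0.63 in TS. Cycs and Cox5a also disagreed more in DN, and Uqcrb did so against 1 of its 2 further probe sets. Differences were counted at a limit of 1.5-fold. For comparison, the same counts were made over 10154 named genes, those with a mean level no lower than 5.72 (the 30th percentile), and all 45 measured members passed that limit. The tissue label was borne out as far as muscle goes, since the general muscle genes Acta1, Ckm, Mb, Ttn and Des read between 12.05 and 13.99 on every array. These genes do not tell the soleus from other muscles.

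In the inner mitochondrial membrane, complex I takes electrons from NADH and complex II takes them from succinate, and both pass them to ubiquinone. Complex III hands them on to cytochrome c, complex IV reduces oxygen, and the proton gradient built on the way drives ATP synthase, complex V. The soleus is a slow postural muscle whose fibres are rich in mitochondria, and the nuclear genes of these complexes are known to be expressed together under regulators such as PGC-1 coactivators, nuclear respiratory factors and estrogen-related receptors.

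The subunit genes read lower as a whole in both treated pools, and most were lowest after denervation. Against Ct, 38 of 45 members were at least 1.5-fold lower in DN, where 5.53% of all genes compared were that much lower, and the median difference was -0.85 against 0.00 over all genes. All 45 read below Ct in DN, where 24.3% of all genes did, and 44 read below it in TS, where 22.7% did; the sign of Ndufa10, the exception, depends on the scaling. In TS, 20 of 45 members were at least 1.5-fold lower, where 2.68% of all genes were, with a median of -0.55 against 0.02. No member was 1.5-fold higher in either comparison, where 4.93% of all genes were higher in DN and 5.89% in TS. At a limit of 2-fold, 11 members were lower in DN, where 2.24% of all genes were, and 2 were lower in TS, where 0.689% were. Since most members read high, the 1491 genes with a mean level of at least 10 were also counted, a comparison added after the data were seen; 11.7% of them were 1.5-fold lower in DN and 6.57% in TS, 7.65% and 7.44% were that much higher, 4.09% and 1.21% were 2-fold lower, and 34.1% and 39.5% were lower by any amount. The 1491 genes include 40 of the members. Without these, 141 of 1451 genes were 1.5-fold lower in DN and 79 in TS. DN minus Ct and TS minus Ct use the same Ct array, so an error on that array would move both.

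On 37 of 45 members (82.2%) the 3 arrays stood in the order Ct, TS, DN from high to low, an order held by 8.28% of all genes compared and by 16.3% of those with a mean level of at least 10. It depends on the scaling for some members. With array medians set equal, DN stood above TS for Cox5a (0.02), Cycs (0.04), Ndufb6 (0.07) and Sdhb (0.07), while Ndufa10 took the order. Over the measured members, levels ran from 7.29 to 13.26 in Ct with a median of 11.88, from 6.42 to 13.02 in DN with a median of 10.86, and from 7.36 to 12.99 in TS with a median of 11.31. Probe set summaries were exactly equal on the Ct and DN arrays for 4355 of the 10154 genes, but for none of the members. Such ties were rarer among bright genes, at 288 of the 1491 with a mean level of at least 10, where 40 of the members lie. Over the genes compared, the Ct array had a median of 8.12, DN of 8.13 and TS of 8.25, and setting the medians equal gives 27 members lower in TS and a median of -0.69, and leaves 38 lower in DN.

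**Figure D1:**
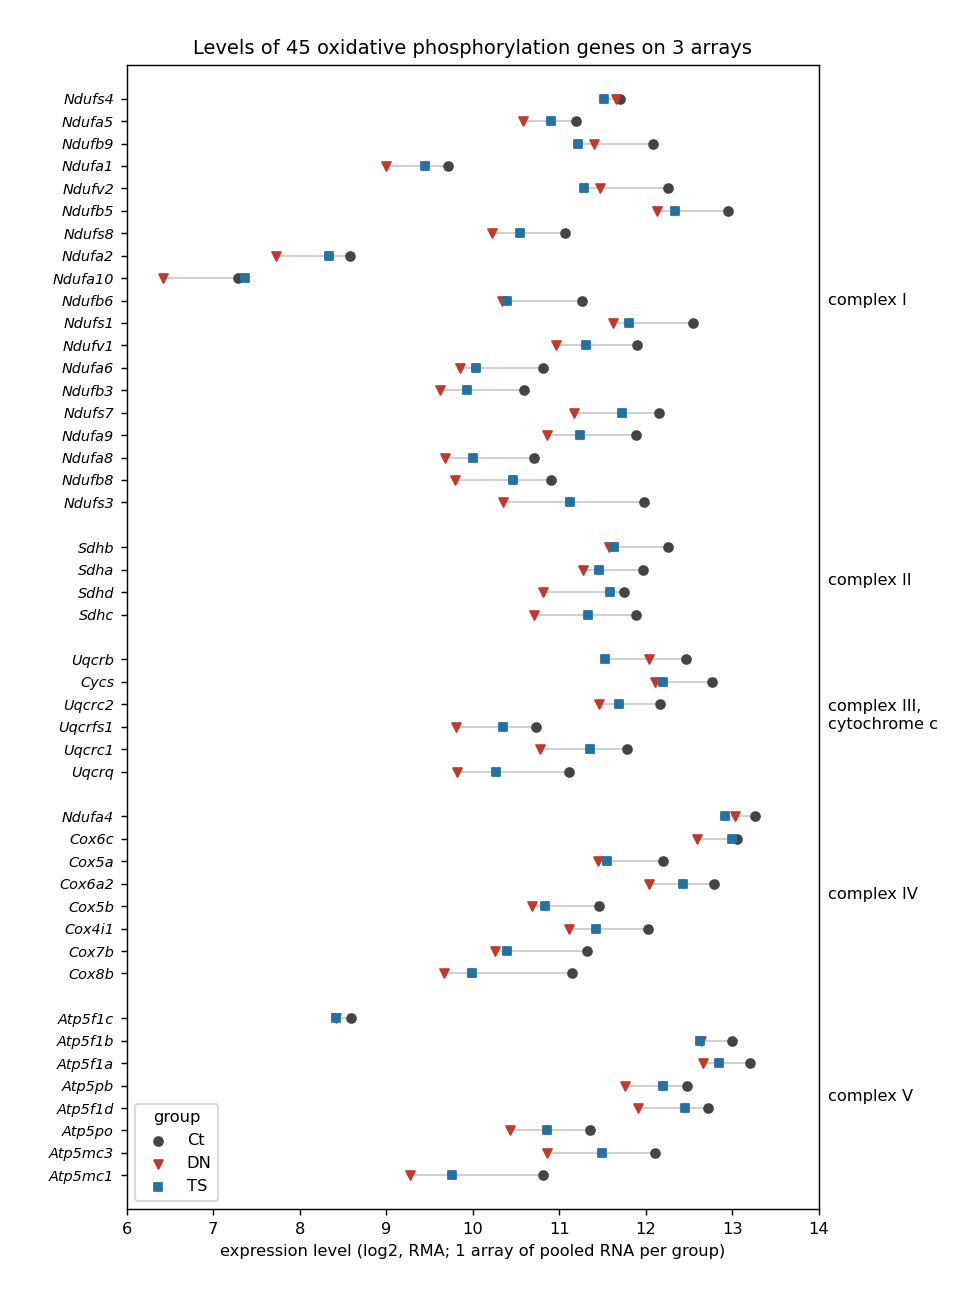
Level of each of the 45 measured genes on the 3 arrays (log2, horizontal axis), grouped by complex, with black circles for Ct, red triangles for DN and blue squares for TS; within a complex, genes are ordered by their difference between DN and Ct. The Ct symbol lies furthest right for every gene but Ndufa10, and DN lies furthest left for most; for Atp5f1c the DN and TS symbols coincide at 8.42.

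Complex I, the largest of the chain, had 19 measured members, of which 18 were at least 1.5-fold lower in DN and 10 in TS, with medians of -0.92 and -0.60. Its catalytic core is made by a few conserved subunits. Ndufs3, a core subunit of the arm that leads to the ubiquinone site, read 11.98 in Ct, 10.35 in DN and 11.13 in TS, so that its DN level was 32.4% of Ct, the lowest share of any member, and its TS level 55.5%. Ndufv1, which binds NADH and the flavin that first accepts electrons, read 11.90, 10.96 and 11.31 in Ct, DN and TS. Its iron-sulphur partner Ndufv2 read 12.26, 11.47 and 11.28, with TS below DN and at 50.8% of Ct. Of the 6 measured core members, all were 1.5-fold lower in DN and 3 in TS, with medians of -0.93 and -0.66. Ndufv1 was 1.49983-fold lower in TS, barely short of the limit, and is not in the TS counts. The iron-sulphur subunits Ndufs1, Ndufs7 and Ndufs8 differed from Ct by -0.92, -0.99 and -0.85 in DN, and by -0.73, -0.43 and -0.52 in TS.

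The 13 measured supernumerary subunits, which surround the core, had medians of -0.87 in DN and -0.60 in TS, and 12 were 1.5-fold lower in DN and 7 in TS. Ndufb8, of the membrane arm, read 10.90 in Ct, 9.80 in DN and 10.47 in TS. The membrane-arm genes Ndufb5, Ndufb6 and Ndufb9 read 12.94, 11.26 and 12.08 in Ct, 12.13, 10.34 and 11.40 in DN, and 12.34, 10.39 and 11.21 in TS. All 3 were past the limit in both treatments, and Ndufb6 and Ndufb9 stood near 55% of Ct in TS, at 54.8% and 55.0%. Ndufa8, a supernumerary subunit with cysteine pairs, read 10.71, 9.68 and 10.01. Ndufa8 (-1.03), Ndufa9 (-1.03), Ndufb3 (-0.97) and Ndufa6 (-0.96) followed in DN, with -0.71, -0.65, -0.66 and -0.78 in TS. A further set was lower in DN and short of the limit in TS, namely Ndufa2 (-0.85 and -0.25), Ndufa1 (-0.72 and -0.28) and Ndufa5 (-0.61 and -0.28).

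A pair of complex I members stood apart from the other members. Ndufs4, an accessory subunit needed for a stable complex, read 11.70 in Ct, 11.65 in DN and 11.51 in TS, at 97.0% and 87.8% of Ct, and was the only complex I member short of 1.5-fold in DN. Complex I genes outside the list fell on both sides of that limit in DN. Ndufb11 (-0.33) and Ndufc2 (-0.46) were among those short of it, and Ndufb7 (-1.15) and Ndufb10 (-1.04) among those past it. Ndufa10, a membrane-arm subunit related to nucleoside kinases, read 7.29 in Ct, 6.42 in DN and 7.36 in TS, and was the only member not below Ct in TS, by 0.08, which became -0.06 with array medians set equal. Another probe set names Ndufa10 and Ndufa10l1 together and was therefore not used; it differed from Ct by -0.84 in DN and -0.64 in TS, so the probe sets disagree on the direction in TS.

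Complex II is the only one of the 4 respiratory complexes built from nuclear genes alone, and all 4 of its genes were at least 1.5-fold lower in DN, with a median of -0.81. Sdhc, which with Sdhd anchors the enzyme in the membrane, read 11.88 in Ct, 10.71 in DN and 11.33 in TS. Sdhd read 11.74, 10.81 and 11.59, so both anchors were past the limit in DN, while Sdhd in TS stood at 89.8% of Ct. Sdha, the flavoprotein that oxidises succinate, read 11.97, 11.28 and 11.45. Sdhb, the iron-sulphur subunit, read 12.25, 11.57 and 11.63, and was the only one of the 4 past 1.5-fold in TS.

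In complex III and cytochrome c, 5 of 6 measured members were at least 1.5-fold lower in DN and 2 in TS, with medians of -0.82 and -0.52. Uqcrq, a small subunit, read 11.11 in Ct, 9.82 in DN and 10.27 in TS, at 40.8% and 55.8% of Ct. The large core proteins Uqcrc1 and Uqcrc2 read 11.78 and 12.16 in Ct, 10.77 and 11.45 in DN, and 11.36 and 11.69 in TS, and both were past the limit in DN alone. Uqcrfs1, the Rieske iron-sulphur protein that passes electrons towards cytochrome c, read 10.74, 9.80 and 10.34. Cycs, which encodes cytochrome c itself, read 12.77, 12.11 and 12.19, and a further probe set gave differences of -0.88 in DN and -0.55 in TS, against -0.66 and -0.57.

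Uqcrb, a ubiquinone-binding subunit of complex III, had the reverse order of the treatments. It read 12.46 in Ct, 12.03 in DN and 11.53 in TS, at 74.5% and 52.3% of Ct, and its DN minus TS difference of 0.51 was the highest of any member. Its 2 other probe sets gave 0.49 and 0.34, again with TS below DN. These probe sets may share target sequence, so they are not separate measurements.

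Complex IV had 8 measured members here, counting Ndufa4, whose protein is now known as a subunit of complex IV although it is named for complex I. Of these, 6 were at least 1.5-fold lower in DN and 5 in TS, with medians of -0.77 and -0.62. Cox8b, the muscle isoform of a small subunit, read 11.14 in Ct, 9.66 in DN and 9.99 in TS, at 35.8% and 44.9% of Ct. Cox7b, another small subunit, read 11.32, 10.26 and 10.39, so both were low in each treated pool. Cox4i1, a regulatory subunit that binds ATP, read 12.03, 11.11 and 11.42. All 3 were at least 1.5-fold lower in both treatments. Cox5a read 12.19, 11.45 and 11.55, and Cox5b, which binds zinc, read 11.46, 10.68 and 10.83.

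At the other end of complex IV, Cox6c read 13.05 in Ct, 12.59 in DN and 12.99 in TS. Its TS difference of -0.07 was too small to give a direction, as it became 0.02 when a trend on level was removed. Ndufa4 read 13.26, 13.02 and 12.91, short of the limit in both treatments. Neither was 1.5-fold lower in DN, where the other 6 members of the complex were. Outside the list, Cox7c (-0.91) was past that limit in DN, while Cox6a1, Cox7a2, Cox8a and Cox4i2 were short of it.

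Of the 8 genes of ATP synthase, complex V, 5 were at least 1.5-fold lower in DN and 2 in TS, with medians of -0.76 and -0.36. In the catalytic F1 head, the gene of the alpha subunit, Atp5f1a, read 13.20 in Ct, 12.66 in DN and 12.85 in TS. Atp5f1b, of the beta subunit that makes ATP, stood at 77.8% of Ct in DN and 77.1% in TS. The gamma subunit gene Atp5f1c read 8.60, 8.42 and 8.42, and the delta subunit gene Atp5f1d read 12.71, 11.91 and 12.45. Only Atp5f1d of these 4 passed the limit in DN and none did in TS. Stalk genes encode the arm that holds the head to the membrane part. Atp5po read 11.36, 10.43 and 10.85, and Atp5pb read 12.47, 11.76 and 12.20, both past the limit in DN alone. The differences of head and stalk genes overlapped, with Atp5f1d (-0.80) between Atp5po (-0.92) and Atp5pb (-0.71) in DN.

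Among the members of complex V, the genes of the c subunit, which forms the rotating ring in the membrane, had the lowest differences. Outside the list, Atp5mk stood at -0.96 in DN and -0.99 in TS, Atp5me at -1.22 and -0.40, and Atp5f1e at -0.69 and -0.31. A c subunit gene outside the list, Atp5mc2, stood at -0.63 and -0.08. Atp5mc1 read 10.81 in Ct, 9.28 in DN and 9.76 in TS, at 34.5% and 48.4% of Ct. Atp5mc3 read 12.10, 10.86 and 11.49, and its further probe set gave -1.62 in DN and -0.63 in TS against -1.24 and -0.61. Both were past the 1.5-fold limit in both treatments, Atp5mc3 narrowly so in TS. In DN, Ndufs3, Atp5mc1 and Cox8b were thus the members with the lowest share of their Ct level, and in TS they were Cox8b, Atp5mc1 and Ndufv2.

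**Figure D2:**
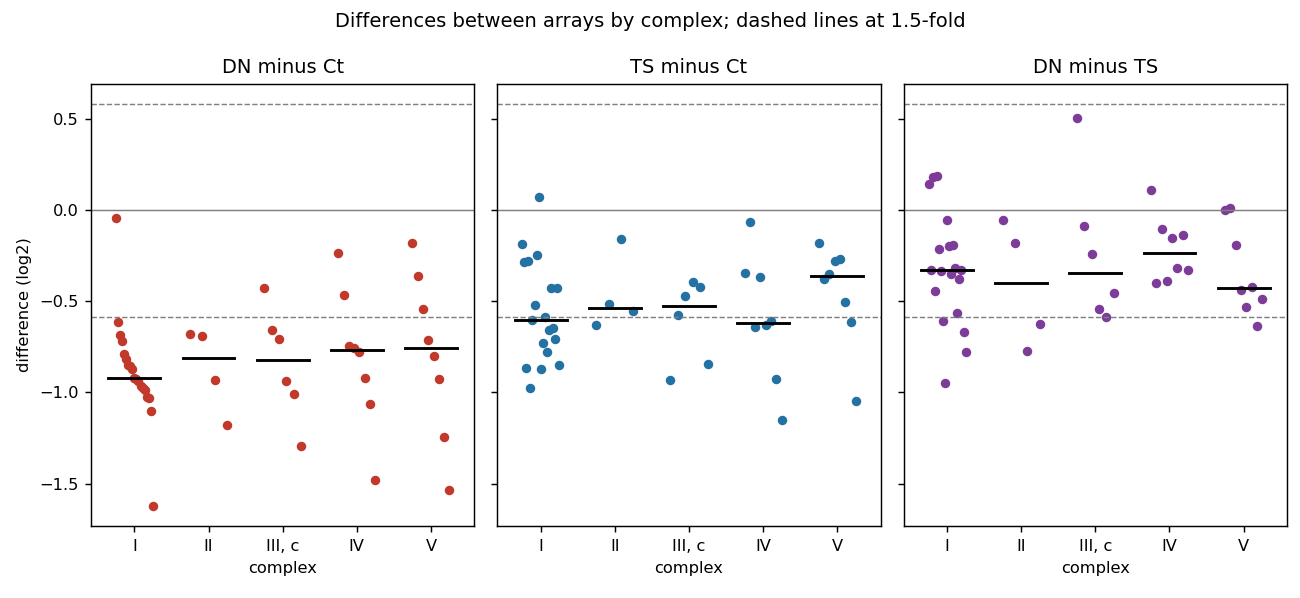
Difference between arrays (log2, vertical axis) for each member, by complex (horizontal axis), with a bar at the median of each complex and dashed lines at 1.5-fold. The medians of DN minus Ct lie between -0.92 for complex I and -0.76 for complex V, and those of TS minus Ct between -0.62 for complex IV and -0.36 for complex V.

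Within a complex, DN differences ran from -1.62 to -0.04 in complex I, from -1.48 to -0.23 in complex IV and from -1.53 to -0.18 in complex V. Whether complexes differ from each other could not be tested. Across the 45 members, Spearman's rho between the mean level and the difference was 0.53 in DN and 0.14 in TS, and Pearson's r was 0.29 and -0.07; the points share the same arrays, and genes are not independent.

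Denervation and suspension were compared directly on their own arrays, without Ct. DN read lower than TS for 38 of 45 members, where 50.3% of all genes compared did, with a median of -0.33 against 0.00. At the 1.5-fold limit, 7 members were lower in DN, where 5.93% of all genes were, and none was higher, where 3.2% were. Of the genes with a mean level of at least 10, 6.71% were lower and 5.23% higher at that limit, and 49.5% were lower by any amount. No member was 2-fold lower, where 1.74% of all genes and 1.34% of the brighter ones were. The 7 were Ndufa10 (-0.95), Ndufs3 (-0.78), Sdhd (-0.77), Ndufb8 (-0.67), Atp5mc3 (-0.63), Sdhc (-0.62) and Ndufa2 (-0.61). The anchor genes of complex II thus differed more between the treatments than Sdha (-0.18) and Sdhb (-0.05). Setting array medians equal brought the count of lower members to 3 and the median to -0.20, and put Uqcrb past 1.5-fold in the other direction. DN read above TS for 6 members, namely Uqcrb (0.51), Ndufv2 (0.19), Ndufb9 (0.18), Ndufs4 (0.14), Ndufa4 (0.11) and Atp5f1b (0.01), the last with a sign that depends on the processing. The value of Ndufa10 depends on its probe set, since the one shared with Ndufa10l1 gave -0.20, and it was -0.74 with 32 added on the linear scale. A further list of subunit genes, which also holds the inhibitor gene Atp5if1, had 29 measured genes. Among these, DN read below TS for 18, above it for 10 and equal for 1, with a median of -0.08, and 6 were lower and 1 higher at the 1.5-fold limit.

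Several subunits are encoded by more than 1 gene, with a form found mainly in heart and skeletal muscle and a form found widely. The muscle form Cox8b was 1.5-fold lower in both treatments, whereas Cox8a, the widely expressed form, read 10.92 in Ct, 10.92 in DN and 11.00 in TS. The muscle form Cox6a2 read 12.79, 12.04 and 12.43, and its counterpart Cox6a1 read 11.04, 10.85 and 11.04. In both these pairs the muscle form had the lower difference from Ct. The listed pair Cox4i1 and Cox4i2 holds no muscle-specific form. Cox4i1 differed by -0.92 in DN and -0.61 in TS, lower than the muscle form Cox6a2 (-0.75 and -0.36). Cox4i2 read at most 5.81, near the filter limit of 5.72, and differed by -0.01 and 0.00. Low differences were thus not particular to muscle forms. Cox7a2, the counterpart of the unmeasured Cox7a1, read 12.65, 12.31 and 12.30. Equal readings can come from the way RMA summarises probes, so a difference of 0.00 is no measure of stability.

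The c subunit is made from separate genes whose mature proteins are the same and whose import sequences differ. Atp5mc2, which was not among the members, read 11.98 in Ct, 11.35 in DN and 11.90 in TS. Its differences of -0.63 and -0.08 were nearer to 0 than those of Atp5mc1 (-1.53 and -1.05) and Atp5mc3 (-1.24 and -0.61). The adenine nucleotide carriers, which exchange ATP for ADP across the inner membrane, showed a related contrast, with Slc25a4, the muscle form, at -0.32 in DN and -0.43 in TS, and Slc25a5 at 0.00 and 0.27. Whether probes of related genes share signal was not tested.

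**Figure D3:**
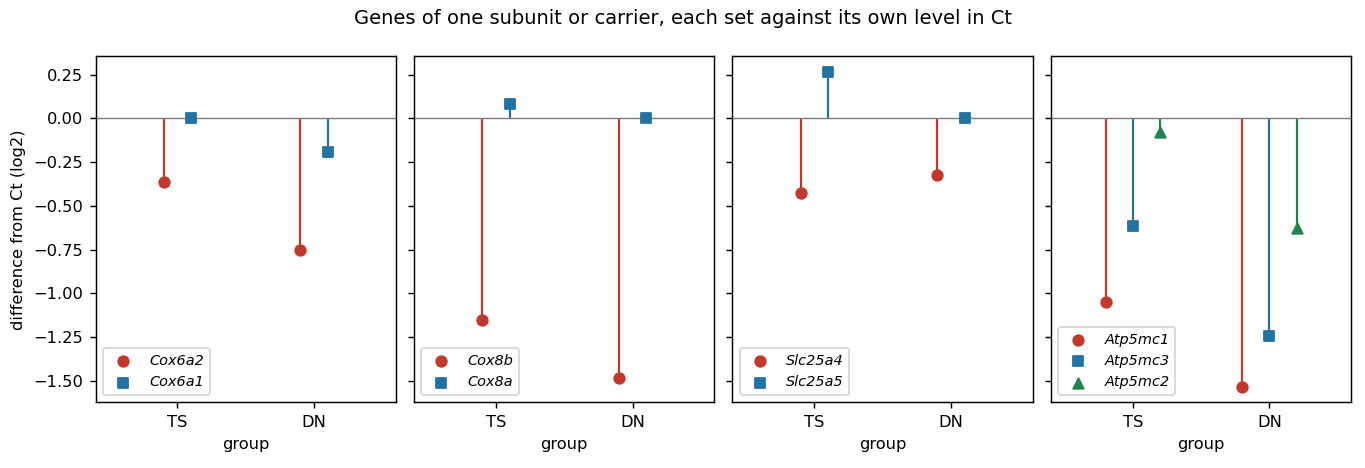
Difference from Ct (log2, vertical axis) in TS and DN for genes that encode forms of the same subunit or carrier, each set against its own Ct level. The pair Cox4i1 and Cox4i2 is not drawn. Red circles mark the forms Cox6a2, Cox8b and Slc25a4, which lie below the blue squares of Cox6a1, Cox8a and Slc25a5 in both treatments; for the c subunit, the circle, square and triangle mark Atp5mc1, Atp5mc3 and Atp5mc2, with Atp5mc1 the lowest.

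Other genes of the same machinery were taken from lists of subunits, assembly factors and mitochondrial proteins. Of the 38 genes listed as further subunits, which include the inhibitor gene Atp5if1, 29 were measured, with medians of -0.56 in DN and -0.35 in TS. At the 1.5-fold limit, 14 were lower in DN and 6 in TS, and none was higher. Over all genes, 5.53% and 2.68% were that much lower, and 4.93% and 5.89% higher. Of genes with a mean level of at least 10, 11.7% and 6.57% were lower, and 7.65% and 7.44% higher. Atp5me, a small membrane subunit of ATP synthase, read 9.93 in Ct, 8.71 in DN and 9.53 in TS. The complex I subunit Ndufb7 read 10.78, 9.63 and 10.43, and Ndufb4 read 10.79, 10.40 and 9.60, so that the former was lowest in DN and the latter in TS. Atp5if1, which encodes the inhibitor that blocks ATP synthase when the gradient collapses, read 11.58, 12.01 and 11.56; it was picked out after its values were seen, as the highest difference of that list in DN, and was short of 1.5-fold.

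Assembly factors build the complexes without staying in them. Of 49 listed, 31 were measured, and 7 were 1.5-fold lower in DN and 1 in TS (5.53% and 2.68% over all genes), with medians of -0.30 and -0.07; 6 had equal readings in DN and Ct, and 4 in TS and Ct. Atpaf1, a chaperone of the F1 head, differed by -0.95 in DN and -0.30 in TS, Lrpprc, which stabilises mitochondrial messenger RNA, by -0.85 and -0.35, and Coa3, a complex IV factor, by -0.70 and -0.77. Genes of the mitochondrial membranes, protein import and carriers had medians of -0.32 and -0.13 over 23 of 24 listed. Of these 23, 8 were at least 1.5-fold lower in DN and none in TS. Over all genes the shares were 5.53% and 2.68%, and over those with a mean level of at least 10 they were 11.7% and 6.57%. Among the 23, Vdac1, the main channel of the outer membrane, stood at -0.88 in DN and -0.45 in TS. Chchd3 stood at -0.78 and -0.48, and the phosphate carrier gene Slc25a3 at -0.72 and -0.29.

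Genes that copy, pack and transcribe the mitochondrial genome were measured for all 12 listed, and none was past 1.5-fold in either comparison. Over all genes, 5.53% were that much lower and 4.93% higher in DN, and 2.68% and 5.89% in TS. The medians of 0.00 rest on ties, since 6 of 12 had equal readings in each comparison; 4 read below Ct and 2 above it in DN, and 1 below and 5 above in TS. Tfam, which packs mitochondrial DNA, read 9.90 in Ct, 9.96 in DN and 9.68 in TS, and the helicase gene Twnk had the highest difference, 0.44 in TS. The subunits encoded by the mitochondrial genome itself were not analysed here. Of 8 regulators listed, 7 were measured, with medians of -0.56 in DN and -0.13 in TS. At least 1.5-fold lower were 3 in DN and 1 in TS (5.53% and 2.68% over all genes). Perm1, a muscle regulator of oxidative genes, read 10.39 in Ct, 6.06 in DN and 8.19 in TS. Esrra, an estrogen-related receptor, differed by -0.90 in DN and -0.18 in TS, and Ppargc1b, a PGC-1 coactivator, by -0.61 and -0.28. Nrf1 and Gabpa, which act on respiratory genes, gave equal readings in Ct and DN; in TS, Nrf1 differed by 0.34 and Gabpa was again equal.

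**Figure D4:**
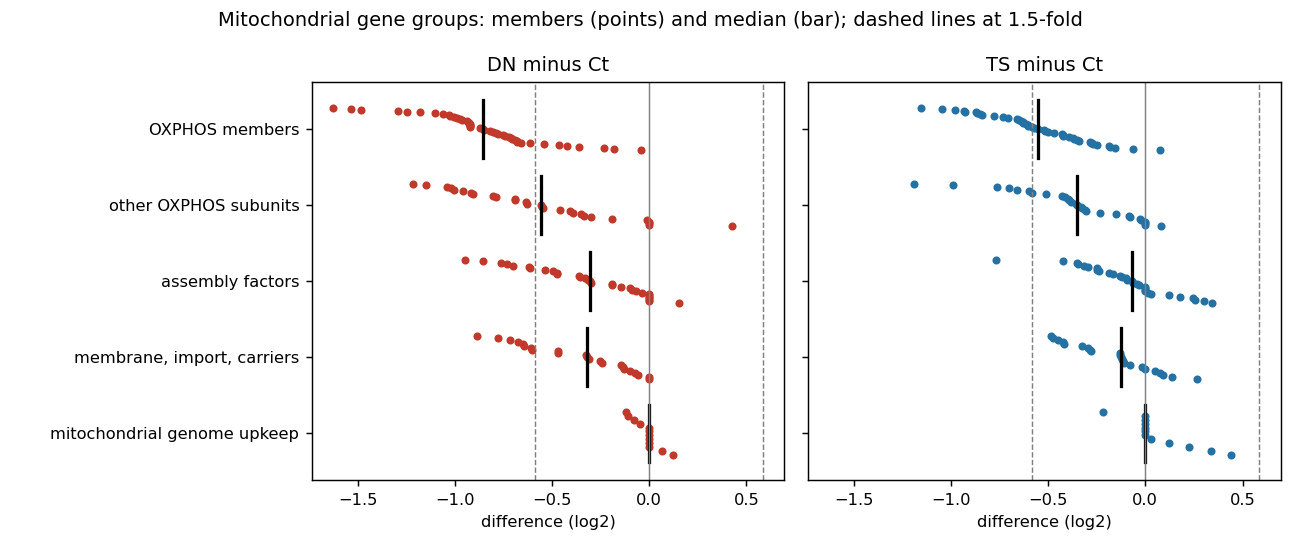
Difference from Ct (log2, horizontal axis) for each measured gene of 5 groups, with a bar at the group median and dashed lines at 1.5-fold. In DN the medians are -0.85 for the members, -0.56 for other subunits, -0.30 for assembly factors, -0.32 for membrane, import and carrier genes and 0.00 for genome upkeep; in TS they are -0.55, -0.35, -0.07, -0.13 and 0.00.

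Fibre type and cell type markers also differed between the pools, and in bulk muscle fewer cells of a type cannot be told apart from less RNA per cell. Over all genes, 5.53% were 1.5-fold lower and 4.93% higher in DN, and 2.68% and 5.89% in TS. Over genes with a mean level of at least 10, these shares were 11.7% and 7.65% in DN, and 6.57% and 7.44% in TS. Fast-fibre markers averaged 9.69 in Ct, 11.46 in DN and 11.92 in TS (mean log2 level over 8 of 9 listed), with 6 at least 1.5-fold higher in DN and 7 in TS. They did not move alike in the 2 treatments. Atp2a1 differed from Ct by -0.43 in DN and 1.04 in TS, Myh4 by 2.02 and 5.72, and Pvalb by 4.34 and 0.45. DN read below TS for 6 of the 8 and above it for 2. Slow-fibre markers averaged 13.33, 12.70 and 12.95, with 3 of 7 lower in DN and 1 in TS. Endothelial markers averaged 9.80, 9.32 and 9.51, with 2 of 5 lower in DN and 1 in TS. Adipocyte markers averaged 7.86, 8.77 and 8.62, with 3 of 6 higher in both, and macrophage markers 8.86, 9.13 and 9.48, with none of 6 higher in DN and 3 in TS. Fibroblast markers averaged 11.12, 11.19 and 11.28, with none of 4 higher in DN and 1 in TS, and Ucp1, the defining gene of brown fat, read at most 4.64, under the limit of 5.72. The general muscle markers had medians of -0.09 in DN and 0.00 in TS, with Ckm at -1.12 in DN and no other of the 5 past the limit. The part of these markers in the lower subunit levels was not tested.

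Since the members read lower together, the sequence around their start sites was searched for the letters of factors known to act on respiratory genes. RefSeq windows of 250 bases before to 50 bases after the start (GRCr8) were found for 41 of the 45 measured members, and 23 of these held at least 1 match on either strand. The NRF1 site (GCGCA and GCGC with 1 free base between) was in 6 members (14.6%) and in 4.25% of all 33469 windows. CCGGAAG, bound by ETS factors such as GABP, was in 12 (29.3%) against 8.75%, TCAAGGTCA, an estrogen-related receptor element, in 2 (4.88%) against 0.433%, and AAGATGGC, a YY1 site, in 9 (22%) against 3.17%. In the 8893 windows of genes bright enough to compare, the shares were 9.41%, 16.9%, 0.214% and 5.25%. With T as the free base of the NRF1 site, a form also searched for, it was in 1 member (2.44%). That form was in 0.852% of all windows and in 1.82% of the 8893. The members with the ETS letters had a median of -0.85 in DN and -0.56 in TS, and those without it -0.92 and -0.51. For the YY1 letters the medians were -0.99 and -0.43 with a match, and -0.81 and -0.58 without. For the NRF1 letters they were -0.81 and -0.46 with a match, and -0.87 and -0.57 without. For the estrogen-related receptor letters, found in 2 members, they were -1.09 and -0.38 with a match, and -0.85 and -0.52 without.

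The 9 YY1 matches all lay on the strand of the gene, with their first base between 1 base before and 27 bases after the start. Since AAGATGGC holds ATG, such a match can also be the first codon of the protein. Some windows are shown as examples of matches and of none, from 100 bases before to 30 bases after the start, 5′ to 3′ on the strand of the gene, with the matched letters in capitals; a match on the opposite strand appears as its reverse complement. Atp5po (chr11:44657454-44657583 (-)) has the NRF1 letters and YY1, Atp5mc3 (chr3:79220635-79220764 (-)) the estrogen-related receptor letters and then NRF1, both on the opposite strand, Uqcrc1 (chr8:118468123-118468252 (+)) NRF1 on the opposite strand and YY1, Sdha (chr1:30764453-30764582 (+)) NRF1 at 3 places, Ndufs7 (chr7:10110469-10110598 (-)) YY1 and Uqcrq (chr10:38089949-38090078 (-)) the ETS letters. Cox8b (chr1:205408244-205408373 (-)) and Atp5mc1 (chr10:81523316-81523445 (-)), which were low in both treatments, have no match in their windows, which says only that these letters are not there.
Atp5po: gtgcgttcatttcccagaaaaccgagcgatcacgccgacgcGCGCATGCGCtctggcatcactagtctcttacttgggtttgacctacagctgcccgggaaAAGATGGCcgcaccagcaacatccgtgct
Atp5mc3: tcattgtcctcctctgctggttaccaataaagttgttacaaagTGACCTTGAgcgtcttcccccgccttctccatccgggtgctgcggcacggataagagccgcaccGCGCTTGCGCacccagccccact
Uqcrc1: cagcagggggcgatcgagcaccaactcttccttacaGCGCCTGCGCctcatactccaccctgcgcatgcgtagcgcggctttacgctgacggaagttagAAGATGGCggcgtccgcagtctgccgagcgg
Sdha: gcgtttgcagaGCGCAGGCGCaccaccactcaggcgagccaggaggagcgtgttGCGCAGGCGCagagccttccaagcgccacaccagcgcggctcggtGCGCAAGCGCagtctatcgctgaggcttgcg
Ndufs7: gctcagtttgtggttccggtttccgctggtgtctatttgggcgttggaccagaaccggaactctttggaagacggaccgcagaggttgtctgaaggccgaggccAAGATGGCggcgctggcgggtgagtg
Uqcrq: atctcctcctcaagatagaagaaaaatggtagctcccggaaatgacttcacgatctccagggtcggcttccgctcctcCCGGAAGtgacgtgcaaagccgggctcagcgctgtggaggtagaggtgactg
Cox8b: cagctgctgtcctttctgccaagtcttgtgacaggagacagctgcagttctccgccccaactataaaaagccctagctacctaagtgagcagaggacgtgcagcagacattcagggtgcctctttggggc
Atp5mc1: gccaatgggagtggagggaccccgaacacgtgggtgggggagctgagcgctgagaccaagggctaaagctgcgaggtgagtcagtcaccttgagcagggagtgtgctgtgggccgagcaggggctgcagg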

How the data were processed

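Total RNA of soleus muscle, pooled from 6 rats per group, was measured on 1 array for each of the groups Ct, DN and TS, 3 in all; the series text speaks of 2. The deposited log2 values were made by the authors with Affymetrix Expression Console (RMA, core exons), per the labels' protocols and the submitters' processing notes. The sources used here do not give the log base, tool version or build.

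Of 29170 probe sets, 15310 had 1 gene symbol in the platform annotation and were used. Differences of log2 values were counted at 1.5-fold; the number of arrays limits the precision, and no test was possible. The members and lists were chosen with earlier results of these data known. Values on all 3 arrays were to be printed for the lowest and highest members of each complex; of the other lists, up to 3 genes with the largest differences were, and Atp5if1, Tfam, Nrf1, Gabpa, Ckm, Ucp1 and the counterpart isoforms were named beside them. The counting was checked on simulated data. Alternatives covered scaling, trend, floor, probe set choice, filter, limit and summary. Promoter windows came from RefSeq (GRCr8). Scripts ran in Python 3.11.15 with pandas 2.3.3, numpy 2.4.6, statsmodels 0.14.6 and matplotlib 3.10.9.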

Additional observations from a re-analysis of the deposited data

How the results depend on the processing

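The counts of members at least 1.5-fold lower in DN and in TS stayed within 1.5 times their values under each scaling, floor, probe set and filter tried. With array medians set equal, the TS minus Ct median was -0.69 and the DN minus TS median -0.20, with 3 members lower and 1 higher in DN than in TS. With 32 added on the linear scale, the DN minus Ct median was -0.81. At a limit of 25% above a ratio of 1 in place of 1.5-fold, 35 members were lower in TS than in Ct, and 24 were lower and 1 higher in DN than in TS. At a limit of 2-fold, 11 were lower in DN than in Ct, 2 in TS than in Ct and 0 in DN than in TS. No member changed sign in DN minus Ct; Cox6c and Ndufa10 did in TS minus Ct, and Atp5f1b, Cox5a, Cycs, Ndufb6 and Sdhb in DN minus TS. Summary values were called moved when they shifted by more than the median disagreement between 2 probe sets of a gene (0.03 between DN and Ct, 0.11 between TS and Ct, 0.09 between DN and TS; the 95th percentiles were 0.33, 0.73 and 0.76). Leaving out replicates was not possible with 1 array per group. No paired analysis was possible because each group has 1 array.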

Other observations

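The 2 probe sets annotated to Ndufs6-ps1, a pseudogene for which the RefSeq gene table lists Ndufs6 among the older names, read 11.45 and 10.67 in Ct, 10.65 and 9.92 in DN, and 10.92 and 10.46 in TS, and their differences from Ct were -0.80 and -0.75 in DN and -0.53 and -0.20 in TS. They may have been designed for Ndufs6 under that older name, which was not tested, and they entered no count.

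Cox5a, a complex IV subunit, had a further probe set with differences of -0.96 in DN and -0.64 in TS, beside -0.74 and -0.64 from the one used.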
